A study of Homo sapiens with 6 samples.

Results

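The genes described here encode the respiratory chain and the ATP synthase of mitochondria. They were taken from the deposited signal table by symbol. A row was a member where its symbol began with NDUF, UQCR, ATP5, or COX followed by a digit from 4 to 8, or was CYC1, SDHA, SDHB, SDHC or SDHD. This gave 81 of the 25438 rows that carried a gene symbol. Of these, 77 encode subunits: 34 of complex I, 4 of complex II, 7 of complex III, 17 of complex IV and 15 of the ATP synthase, which is also called complex V. Of the remaining 4, NDUFAF1 encodes an assembly factor of complex I and COX6BP1 is a pseudogene. ATP5S (now DMAC2L) and COX4NB (now EMC8) matched by spelling alone and encode no subunit. Subunits encoded by mitochondrial DNA have other symbols and are outside this set, so counts per complex below cover nuclear-encoded subunits only.

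The cells were A375, an established human melanoma line grown in DMEM with fetal bovine serum. Flasks received 100000 cells and were kept for 3 days either with DMSO, the solvent, or with leflunomide at 25 µM. Total RNA was then read on Illumina bead arrays, 3 for each treatment, referred to below as DMSO 1 to 3 and leflunomide 1 to 3. Whether the 3 RNA samples of a treatment were grown separately is not stated in the labels. The p-values therefore reflect the spread among these arrays, which could be technical.

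Complexes I to IV carry electrons from NADH and succinate to oxygen and, apart from complex II, pump protons across the inner mitochondrial membrane. The ATP synthase lets these protons flow back and makes ATP. Ubiquinone is the membrane-bound carrier that takes electrons from complexes I and II and hands them to complex III. Dihydroorotate dehydrogenase, encoded by DHODH, is the enzyme of pyrimidine synthesis that leflunomide's active metabolite inhibits. It sits in the same membrane and passes electrons to ubiquinone, so its activity depends on complexes III and IV downstream. The comparison asks whether transcripts of these complexes differed in abundance after exposure to the drug.

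Over the 6 arrays, limma called no member of the respiratory chain or ATP synthase higher or lower. An unadjusted p under 0.05 was reached by 8 of the 72 tested members and by 2087 of all 12345 tested genes. At the adjusted p used for calls, the same test called 132 of 12345 genes, or 1.07% (0.235% higher and 0.834% lower). Leflunomide 3 stood apart from every other array, and without it 7 of 71 tested members were called, 4 higher and 3 lower, which is 9.86%. The share over all 12166 genes tested on those 5 arrays was 19.5% (9.42% higher and 10% lower). The called subunits were UQCRC2, SDHD and NDUFC1, which rose between 1.30-fold and 1.47-fold, and NDUFB8, SDHC and ATP5MC1, which fell between 1.31-fold and 1.34-fold. DMAC2L, which encodes no subunit, was the other called member. The members' share lay below that of all genes, a difference that was neither tested nor matched for brightness. The called members went both ways, also within complexes I and II. Leaving out a further array changed the counts: limma called no member without leflunomide 1, 1 higher and 0 lower without DMSO 3, 3 and 1 without DMSO 1, 2 and 1 without leflunomide 2, and 5 and 7 without DMSO 2. Median scaling of the 5 arrays, used instead of quantile normalization, moved the median of all genes to −0.20 and called 0 members higher and 1 lower, with UQCRC2 at 0.28, SDHD at 0.16 and NDUFC1 at 0.11. In bulk RNA a lower share of some cells and less RNA per cell cannot be told apart.

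Mean signals per array lay between 318 and 371 with DMSO and were 262, 343 and 129 on leflunomide 1, 2 and 3. Signals are printed below in the file's linear units, before any scaling between arrays, so most genes read low on leflunomide 1 and lower still on leflunomide 3. Log2 values and fold changes are after background correction and quantile normalization. After normalization leflunomide 3 correlated with the others across genes at 0.890 to 0.902. Markers of the melanocyte lineage were partly present. SOX10, CSPG4, MIA, PRAME and S100A1 were above background on all 6 arrays, while MLANA, TYR, TYRP1, DCT, S100B and BIRC7 were above it on none. MITF and PAX3 were above it on 1 array each. PMEL, of the same list, was above background on 4 arrays and fell by 1.06 over 6 arrays and 1.32 over 5 (limma adjusted p = 0.034 and 7.6e-06).

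Markers of other cell types were above background on at least 3 arrays for 4 of 8 fibroblast, 3 of 6 blood cell, 1 of 4 endothelial and 1 of 5 muscle genes. They were CD68 and ACTN2 on 6 arrays, LYZ and PECAM1 on 5, DCN, LUM and FAP on 4, and PDGFRA and CD14 on 3. Of the epithelial list KRT8 and KRT18 were above background on 6 and EPCAM on 3. COL1A1 and TTN were above it on 2. PTPRC, CD3E, MS4A1, VWF, CDH5, KDR, COL1A2, COL3A1, THY1, MYH2, MYH7, CKM, KRT19 and CDH1 were above it on none. Summed signals of the blood cell list were 1452 to 1847 with DMSO and 529 to 1110 with leflunomide, and of the fibroblast list 588 to 649 and 330 to 563. These sums are not scaled between arrays and include rows at background. Most of the blood cell sum was CD68, at 1123 to 1493 with DMSO and 336 to 786 with leflunomide. Without leflunomide 3 CD68, LYZ, DCN and LUM fell by 0.70, 0.56, 0.86 and 1.00 on the log2 scale (limma adjusted p = 0.00054, 0.0089, 0.0003 and 0.00056). Their part in the results below was not tested.

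Of the 81 members, 64 were above background, at a detection p under 0.05, on all 6 arrays, 8 on some and 9 on none. The 9 were NDUFA5, NDUFB4, NDUFC2 and NDUFS6 of complex I, and COX4I2, COX6A2, COX6B2, COX7A1 and COX8C of complex IV. These COX genes encode tissue-restricted isoforms. Their partners COX4I1, COX6B1 and COX8A were detected on all 6 arrays, and COX6A1 and COX7A2 on 5. The complex I genes, by contrast, encode accessory subunits and are not counted as tissue-restricted isoforms. NDUFS6, for example, is a subunit of the complex in every tissue. Its signals of 54.6 to 64.4 on the first 5 arrays and 37.8 on leflunomide 3 lay near the negative controls. A row without signal can reflect its probe, and so does not show that a transcript was absent. Members detected numbered 70, 71 and 71 on DMSO 1 to 3 and 71, 72 and 66 on leflunomide 1 to 3. Over all rows the counts were 13843, 14020 and 13793 with DMSO and 13739, 13235 and 11816 with leflunomide. Arrays of the DMSO group detected 70.7 ± 0.577 members (SD over 3 arrays) and those of the leflunomide group 69.7 ± 3.21, a difference that an exact two-sided permutation test did not separate from 0 (p = 1, where 0.1 is the smallest it can give).

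**Figure D1:**
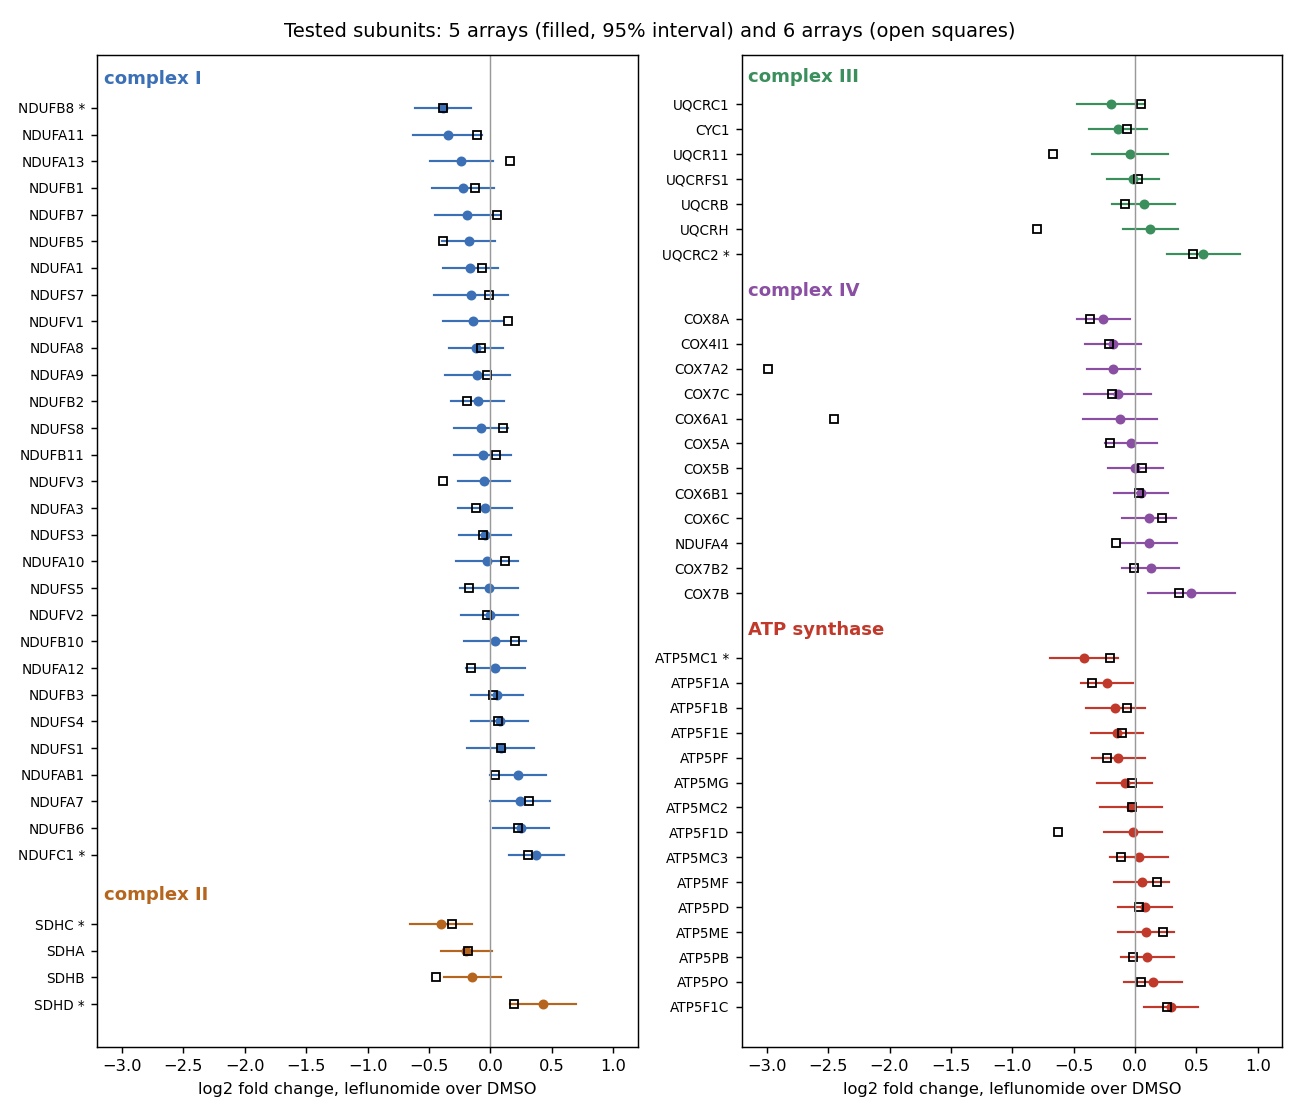
Log2 fold change of leflunomide over DMSO for tested subunits, by complex. Filled circles with bars are the estimates and 95% intervals without leflunomide 3, open squares the estimates over all 6 arrays, and asterisks mark the 6 subunits called without leflunomide 3. Most filled circles lie near 0, and the open squares of COX7A2 and COX6A1 lie far to the left.

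Complex I was the largest group, with 30 of its 34 subunits in this set tested. Its median log2 fold change was −0.0011 over 6 arrays and −0.057 without leflunomide 3, beside −0.0020 and 0.0053 for all tested genes. NDUFB8, an accessory subunit of the membrane arm, was the brightest of the called subunits, with signals of 12680, 13429 and 12770 with DMSO and 7452, 11329 and 3925 with leflunomide. After normalization of the 5 arrays its log2 values were 13.62, 13.55 and 13.69 with DMSO and 13.15 and 13.32 with leflunomide. It fell by 0.39 ± 0.10 (SE) on the log2 scale (limma adjusted p = 0.021). Leflunomide 3 also lay below every DMSO array, and the change over all 6 arrays was −0.39 ± 0.10 as well (limma adjusted p = 0.14). NDUFB8 thus had the same estimate in both fits.

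NDUFC1, another accessory subunit of the membrane arm, moved the other way. Its signals were 875, 1088 and 785 with DMSO and 770, 1186 and 302 with leflunomide. Its normalized log2 values of 9.67, 9.72 and 9.54 with DMSO lay below the 9.97 and 10.06 of leflunomide 1 and 2. The increase was 0.37 ± 0.10 (SE, limma adjusted p = 0.023) without leflunomide 3 and 0.31 ± 0.12 (limma adjusted p = 0.26) with it, and leflunomide 3 itself was above the DMSO arrays. NDUFA7, an accessory subunit, had the largest increase of complex I over 6 arrays, with an estimate of 0.32 ± 0.13 (limma adjusted p = 0.30), with signals of 1154, 1299 and 1126 against 850, 1549 and 485. All 3 of its leflunomide arrays were above the DMSO arrays after normalization, but it passed neither test (limma adjusted p = 0.16 on 5 arrays).

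The 7 nuclear-encoded core subunits of complex I, which together carry the flavin and the iron-sulfur clusters, included no called gene. The core subunits encoded by mitochondrial DNA were not in the set. NDUFV1, the NADH-binding subunit, had signals of 1718, 1748 and 1759 with DMSO and 1117, 1542 and 913 with leflunomide. NDUFS1, the largest iron-sulfur subunit, had 106, 100 and 96.4 against 87.1, 101 and 51.4. Neither separated the treatments after normalization. Without leflunomide 3 their log2 fold changes were −0.14 ± 0.11 and 0.09 ± 0.13 (SE), and the 95% interval of each of the 7 core subunits lay within 1.5-fold in either direction. NDUFA13, an accessory subunit, illustrates the part of leflunomide 3 in the fit of 6 arrays. Its signals were 3169, 3403 and 3503 with DMSO and 2110, 2755 and 2179 with leflunomide, and its fold change went from −0.24 ± 0.12 without that array to 0.16 ± 0.34 with it. NDUFV3, a small accessory subunit with signals of 88.0 to 118 on the other arrays, was not detected on leflunomide 3, at 43.9.

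Complex II, succinate dehydrogenase, has 4 nuclear-encoded subunits and was the smallest group, and both subunits of its membrane anchor were called without leflunomide 3, in opposite directions. SDHC and SDHD together hold the heme and form the ubiquinone site with SDHB. SDHC had signals of 1220, 1320 and 1336 with DMSO and 631, 1037 and 362 with leflunomide. Its log2 values were 10.16, 10.01 and 10.32 with DMSO and 9.66 and 9.85 with leflunomide. It fell by 0.41 ± 0.12 (SE, limma adjusted p = 0.028). SDHD had signals of 557, 776 and 513 with DMSO and 598, 721 and 157 with leflunomide, so leflunomide 1 exceeded 2 of the DMSO arrays although most genes were dimmer on it. Its log2 values were 8.98, 9.20 and 8.88 with DMSO and 9.59 and 9.30 with leflunomide. It rose by 0.43 ± 0.12 (SE, limma adjusted p = 0.030).

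The log2 value of SDHD minus that of SDHC was −1.18, −0.81 and −1.44 on the DMSO arrays and −0.08 and −0.55 on leflunomide 1 and 2, so the groups did not overlap. This difference follows from the choice of both genes and was not tested. Over all 6 arrays neither passed. SDHC was at −0.31 ± 0.15 (limma adjusted p = 0.35), and leflunomide 3 lay between DMSO arrays. SDHD was at 0.19 ± 0.23 (limma adjusted p = 0.67), and leflunomide 3 lay below every DMSO array, opposite to leflunomide 1 and 2.

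The catalytic subunits of complex II did not pass. SDHA, the flavoprotein that oxidizes succinate, had signals of 778, 951 and 766 with DMSO and 497, 725 and 227 with leflunomide. Its 3 leflunomide arrays lay below the DMSO arrays after normalization, with a log2 fold change of −0.19 ± 0.10 without leflunomide 3 (limma adjusted p = 0.18) and −0.18 ± 0.09 with it. SDHB, the iron-sulfur subunit, had 6951, 6883 and 6049 against 4132, 6568 and 1100, and was at −0.15 ± 0.11 and −0.44 ± 0.26 in the same fits. The median of complex II was −0.24 over 6 arrays and −0.17 over 5, over only 4 genes of which 3 were negative.

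Complex III passes electrons from ubiquinol to cytochrome c. UQCRC2, one of its large core proteins on the matrix side, had the largest change of any member without leflunomide 3. Its signals were 367, 339 and 285 with DMSO and 347, 421 and 123 with leflunomide. The log2 values were 8.32, 7.87 and 7.92 with DMSO and 8.71 and 8.47 with leflunomide. It rose by 0.56 ± 0.14 (SE, limma adjusted p = 0.014), or 1.47-fold. Over 6 arrays the estimate was 0.47 ± 0.17 (limma adjusted p = 0.24), where leflunomide 3 was above all 3 DMSO arrays by a small margin.

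Its partner core protein UQCRC1 had signals of 3271, 3294 and 3592 with DMSO and 2000, 3180 and 1682 with leflunomide, and a log2 fold change of −0.20 ± 0.13 without leflunomide 3 (limma adjusted p = 0.30). CYC1, the cytochrome c1 subunit, had 7757, 7724 and 6301 against 4779, 7166 and 2830, and was at −0.14 ± 0.11. UQCRFS1, the Rieske iron-sulfur protein, had 7467, 8000 and 6841 against 5526, 7390 and 2978, and was at −0.02 ± 0.10. The subunits of this set that hold redox centres thus did not pass. Their 95% intervals without leflunomide 3 ran from −0.37 to 0.10 for CYC1 and from −0.23 to 0.19 for UQCRFS1. UQCRB was at 0.07 ± 0.12. The complex had a median of −0.07 over 6 arrays and −0.016 over 5.

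Complex IV, cytochrome c oxidase, had 12 of its 17 subunits in this set tested and none called in either fit. COX4I1, the ubiquitous form of the regulatory subunit IV, had signals of 17935, 18044 and 18460 with DMSO and 12989, 17781 and 5867 with leflunomide. COX5A had 9155, 10546 and 8323 against 7101, 10213 and 2292. Their log2 fold changes without leflunomide 3 were −0.18 ± 0.11 and −0.03 ± 0.10 (limma adjusted p = 0.26 and 0.86). COX8A, a small transmembrane subunit, was lower on all 3 leflunomide arrays after normalization, at −0.26 ± 0.10 on 5 arrays and −0.37 ± 0.12 on 6 (limma adjusted p = 0.091 and 0.21). The largest increase was that of COX7B, with signals of 1433, 2364 and 1242 with DMSO and 1448, 2313 and 537 with leflunomide. It stood at 0.46 ± 0.16 on 5 arrays (limma adjusted p = 0.065) and its DMSO arrays spread over 10.21 to 10.89 on the log2 scale.

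COX7B2 is an isoform of COX7B whose expression is otherwise described mainly in testis. It was the tissue-restricted isoform of the 6 in the file that was detected, on all 6 arrays, with signals of 621, 794 and 574 with DMSO and 467, 752 and 168 with leflunomide. The treatments overlapped, with a log2 fold change of 0.13 ± 0.11 on 5 arrays and −0.01 ± 0.15 on 6. NDUFA4, named for complex I but counted here to complex IV, was at 0.12 ± 0.11 and −0.15 ± 0.25. Since probes differ in how well they bind, the signals of an isoform pair do not give their ratio.

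The ATP synthase had all 15 genes of its list tested. It consists of a catalytic F1 head, a ring of c subunits that turns in the membrane, and stalk and membrane subunits that hold the head in place. Subunit c is encoded by 3 genes, ATP5MC1, ATP5MC2 and ATP5MC3, which yield the same mature protein. ATP5MC1, named ATP5G1 in the file, had signals of 2730, 2470 and 2601 with DMSO and 1376, 1975 and 999 with leflunomide. Its log2 values were 11.37, 10.96 and 11.33 with DMSO and 10.81 and 10.79 with leflunomide. It fell by 0.42 ± 0.13 (SE, limma adjusted p = 0.037) without leflunomide 3. With leflunomide 3, which lay above all 3 DMSO arrays, it was at −0.21 ± 0.23 (limma adjusted p = 0.64). ATP5MC2 and ATP5MC3 were at −0.03 ± 0.12 and 0.03 ± 0.11 on 5 arrays, and neither passed. Whether they differ from ATP5MC1 was not tested.

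In the F1 head, ATP5F1A and ATP5F1B encode the alpha and beta subunits that form the catalytic hexamer. ATP5F1A, named ATP5A1 in the file, had signals of 15605, 15766 and 14126 with DMSO and 10526, 13915 and 4114 with leflunomide. It was lower on all 3 leflunomide arrays after normalization, at −0.23 ± 0.10 on 5 arrays and −0.35 ± 0.13 on 6 (limma adjusted p = 0.12 and 0.25). ATP5F1B (ATP5B in the file) had 24795, 22594 and 22750 against 17801, 22205 and 9540, with an estimate of −0.16 ± 0.11 on 5 arrays. ATP5F1C (ATP5C1 in the file), the gamma subunit of the rotating stalk, had 3647, 3922 and 3070 against 3054, 4620 and 1317. It was the highest of the head, above all DMSO arrays on leflunomide 1, 2 and 3, at 0.29 ± 0.10 on 5 arrays and 0.26 ± 0.10 on 6 (limma adjusted p = 0.062 and 0.28). The 7 stalk and membrane subunits had a median of 0.081 without leflunomide 3, and none was called.

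**Figure D2:**
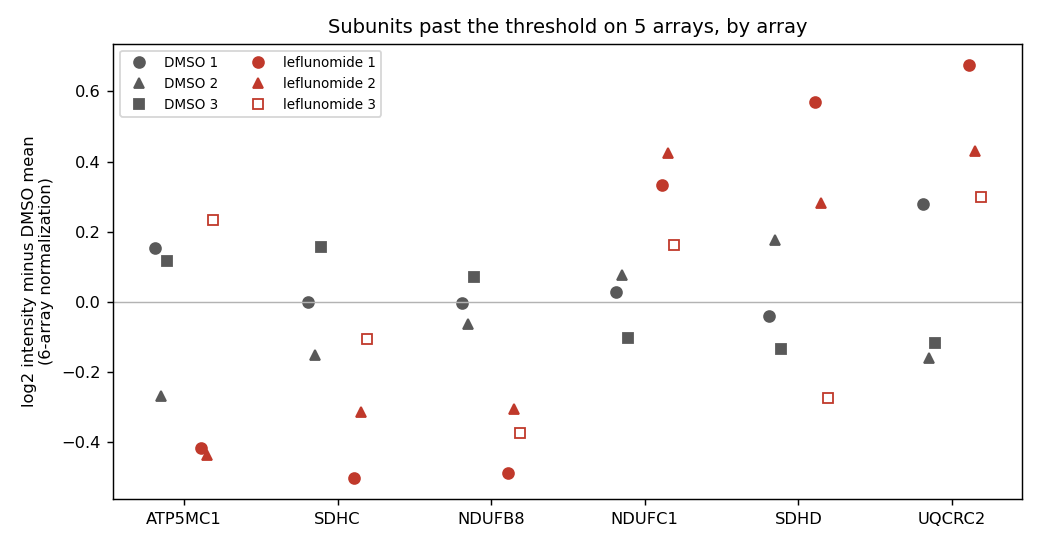
Normalized log2 intensity of each array minus the mean of the 3 DMSO arrays, for the 6 subunits called without leflunomide 3 and normalized over all 6 arrays. Leflunomide 3 (open red squares) lies with leflunomide 1 and 2 for NDUFB8, NDUFC1 and UQCRC2, between DMSO arrays for SDHC, and on the other side of the DMSO mean for SDHD and ATP5MC1.

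Promoter windows were read for the subunits because factors such as NRF1, the ETS family member GABP and YY1 are known to act at many nuclear genes of the respiratory chain. RefSeq windows of GRCh38.p14, 250 bases before to 50 after a gene's start, were present for 62 of the 77 subunit genes (74 windows). On either strand, the NRF1 motif was found in 20.3% of these windows and in 5.78% of all 35116 windows. This motif is the first run of capitals in the SDHD window printed below, with any base allowed after its A. The ETS motif CCGGAAG was found in 27.0% against 10.3%, and the YY1 motif AAGATGGCG in 12.2% against 1.75%. Base composition was not matched between the sets of windows. An ETS and a YY1 match can overlap by the letters AAG. In all, 48.6% of subunit windows held at least 1 of them, against 16.1% of all.

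The 250 bases before the start are shown for the 3 called subunits with a single start in the table, to compare a window with motifs and those without. Capitals mark motif letters. Each is written 5′ to 3′ on the strand of the gene.
SDHD: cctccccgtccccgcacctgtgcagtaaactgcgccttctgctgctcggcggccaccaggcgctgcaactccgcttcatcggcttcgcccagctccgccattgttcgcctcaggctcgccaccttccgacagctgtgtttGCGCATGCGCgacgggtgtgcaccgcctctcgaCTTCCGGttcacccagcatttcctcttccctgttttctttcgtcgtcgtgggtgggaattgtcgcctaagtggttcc
UQCRC2: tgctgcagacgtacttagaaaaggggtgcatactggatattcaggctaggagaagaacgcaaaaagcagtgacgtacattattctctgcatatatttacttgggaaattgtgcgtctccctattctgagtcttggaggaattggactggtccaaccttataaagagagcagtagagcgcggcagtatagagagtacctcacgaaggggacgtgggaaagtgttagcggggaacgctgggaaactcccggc
ATP5MC1: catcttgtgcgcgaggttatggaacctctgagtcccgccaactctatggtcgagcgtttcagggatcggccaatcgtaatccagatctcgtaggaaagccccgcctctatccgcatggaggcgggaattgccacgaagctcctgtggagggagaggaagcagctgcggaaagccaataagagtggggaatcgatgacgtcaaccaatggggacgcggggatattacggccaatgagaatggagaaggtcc
The windows lie at chr11:112086623-112086872 on the plus strand for SDHD, chr16:21953111-21953360 on the plus strand for UQCRC2 and chr17:48892537-48892786 on the plus strand for ATP5MC1. The SDHD window holds an NRF1 match 110 to 101 bases before the start and an ETS match, on the opposite strand, 77 to 71 bases before it. The UQCRC2 and ATP5MC1 windows hold none of the 3 motifs. A match is a string of letters and no measured binding site.

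Among the subunits with a window that were tested on 6 arrays, the 13 with an NRF1 match had a median log2 fold change of −0.041 without leflunomide 3 and the 43 without a match −0.053. For ETS the medians were −0.085 over 19 genes and −0.033 over 37, and for YY1 −0.14 over 8 genes and −0.037 over 48. Over 6 arrays the medians with and without a match were −0.0275 and −0.0153 for NRF1. They were −0.0592 and −0.0134 for ETS, and −0.0214 and −0.0188 for YY1. The differences were not tested. All of these lay within 0.2 log2 units of 0.

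Leflunomide 3 lost individual subunits while others stayed bright. Signals of COX7A2, a small subunit of complex IV, were 9388, 11134 and 8916 with DMSO and 7079 and 9295 on leflunomide 1 and 2, but 27.0 on leflunomide 3. COX6A1, the non-muscle form of subunit VIa, had 3820, 3749 and 3378, then 1985 and 4152, and 19.9 on leflunomide 3. Both values lay below the negative control mean of that array, 36.8 ± 6.52 (SD over bead types). COX4I1 kept a signal of 5867 on the same array, so the loss was not shared by the complex.

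UQCRH, the hinge protein of complex III, had 6055, 7326 and 5292 with DMSO, 5035 and 7042 on leflunomide 1 and 2, and 318 on leflunomide 3. ATP5F1D (ATP5D in the file), the delta subunit of the F1 head, had 1888, 1882 and 1793, then 1276 and 1828, and 168. UQCR11 (UQCR in the file), the smallest subunit of complex III, had 136, 137 and 147, then 116 and 124, and 14.4. Together with NDUFV3 these 5 made up the 6 members detected on every array except leflunomide 3. UQCRH and ATP5F1D still lay above the negative control mean of that array, 36.8. Their rows may combine probes, so their detection p-values need not follow the printed signal.

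The losses set the fold changes of these genes over 6 arrays. COX7A2 was at −2.99 ± 2.26 (SE) with leflunomide 3 and at −0.18 ± 0.10 without it, and COX6A1 at −2.45 ± 1.88 and −0.12 ± 0.14. UQCRH was at −0.80 ± 0.75 and 0.12 ± 0.10, UQCR11 at −0.67 ± 0.53 and −0.04 ± 0.14, and ATP5F1D at −0.63 ± 0.51 and −0.02 ± 0.11. None of these was called in either fit. Among members with a signal above 1000 on the other 5 arrays, 2 of 53 (3.77%) lay more than 4 log2 units below the median shift on leflunomide 3. The same held for 83 of 1720 named rows (4.83%), so the members' share was near that of bright genes in general.

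**Figure D3:**
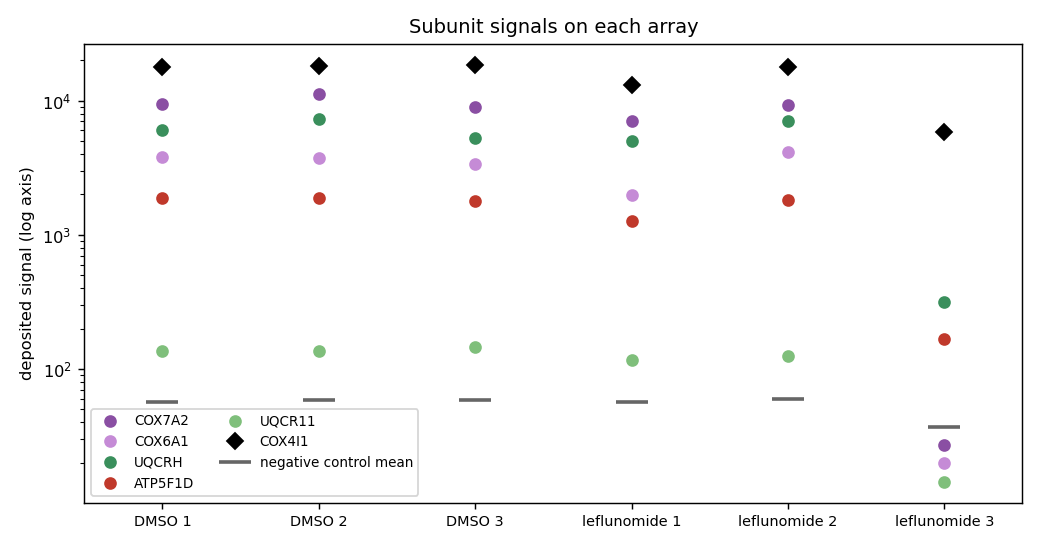
Deposited signal on a log axis for the 5 subunits with the lowest signal on leflunomide 3 relative to the other arrays, with COX4I1 (black diamonds) and each array's negative control mean (bars). On leflunomide 3 COX7A2, COX6A1 and UQCR11 fall below the negative control mean, while COX4I1 remains at 5867.

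The medians of the complexes lay close to that of all genes, with complex II the lowest. Medians without leflunomide 3 were −0.057 for complex I, −0.17 for complex II, −0.016 for complex III, −0.015 for complex IV and −0.016 for the ATP synthase, and that of all tested genes was 0.0053. Over 6 arrays the complex IV median was −0.17 and the ATP synthase median −0.025. Per array, the complex IV median relative to the DMSO mean was −0.078 and 0.073 on leflunomide 1 and 2 and −0.29 on leflunomide 3. Complex II was the group in which all 3 leflunomide medians (−0.22, −0.13 and −0.21) lay below those of the DMSO arrays, and it rests on 4 genes.

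The estimates without leflunomide 3 were close to 0 for most members, and the intervals were narrow. The 95% interval lay within 1.5-fold in either direction for 62 of 71 members (87.3%), against 80.2% of all tested genes. The log2 fold change exceeded 0.5 in size for 1 member, UQCRC2 (1.41%), against 8.58% of all genes. The treatments did not overlap for 10 members higher and 18 lower (39.4%), against 48.6% of all genes. With leflunomide 3 included, the treatments did not overlap for 7 members higher and 11 lower (25.0%), against 29.8% of all genes. In that fit 40 of 72 members (55.6%) had an interval within 1.5-fold, against 45.5% of all genes. These shares were not matched for brightness. On the 5 arrays other than leflunomide 3, signals exceeded 1000 for 53 of 81 members and 1720 of 25438 named rows. Estimates changed sign between the fits for 16 of 71 members. All 7 members called without leflunomide 3 kept their direction with it, but both fits share the other 5 arrays. Leflunomide 3 itself lay on the opposite side of the DMSO mean for SDHD and ATP5MC1.

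**Figure D4:**
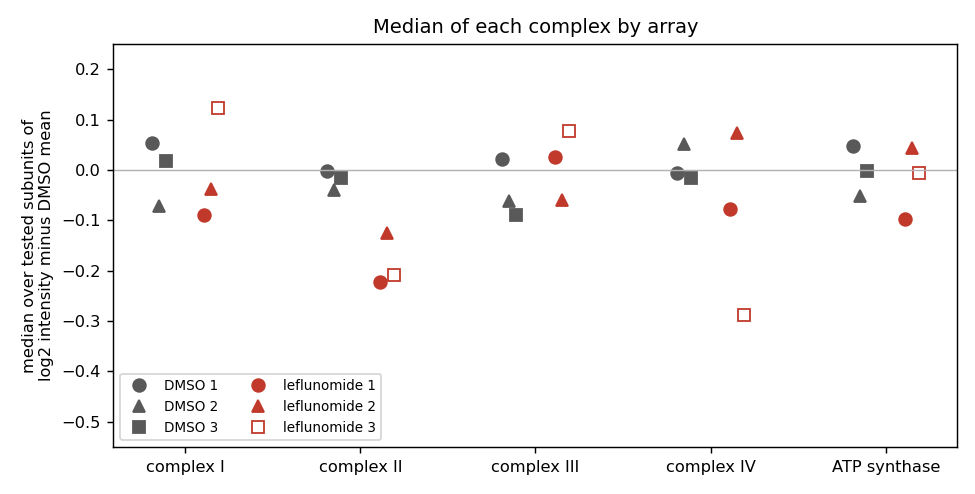
Median over the tested subunits of each complex of the normalized log2 intensity minus the mean of the DMSO arrays, for each of the 6 arrays. Points lie between −0.29 and 0.12, and the lowest is complex IV on leflunomide 3.

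The members that encode no subunit were few. DMAC2L had signals of 176, 222 and 165 with DMSO and 165, 235 and 81.3 with leflunomide. It rose by 0.39 ± 0.11 (SE, limma adjusted p = 0.021) without leflunomide 3, and was at 0.39 ± 0.10 with it (limma adjusted p = 0.14). NDUFAF1, which helps to build the membrane arm of complex I, was lower on all 3 leflunomide arrays after normalization but passed neither test, at −0.31 ± 0.11 and −0.37 ± 0.13 (limma adjusted p = 0.077 and 0.22). EMC8 was at −0.11 ± 0.10 on 5 arrays, and COX6BP1 was detected on the 3 leflunomide arrays and on no DMSO array. It passed the filter through the leflunomide arrays alone, and it is 1 of the 7 members counted above as higher without overlap over 6 arrays.

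DHODH itself was dim. Its signals were 84.0, 91.0 and 87.1 with DMSO and 73.6, 84.5 and 43.0 with leflunomide, and it was above background on the first 5 arrays. The log2 fold change was −0.08 ± 0.10 without leflunomide 3 (limma adjusted p = 0.63) and −0.25 ± 0.17 with it (limma adjusted p = 0.51), so no change in its transcript was found. Other genes of electron transfer towards ubiquinone were listed with DHODH. Of these, ETFB, a subunit of the electron transfer flavoprotein, was at −0.32 ± 0.11 on 5 arrays (limma adjusted p = 0.060). SQOR, which oxidizes sulfide, was at −0.20 ± 0.15. GPD2, PRODH and CHDH were above background on no array, and none of the 5 tested genes was called.

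Genes around the chain were read from the same fits, and none was called over 6 arrays in the lists that follow. Without leflunomide 3, 3 of 11 genes of ubiquinone synthesis and handling fell and none rose. COQ9, a lipid-binding protein needed for the pathway, had signals of 1906, 2312 and 1849 with DMSO and 1071, 1562 and 474 with leflunomide, and fell by 0.38 ± 0.10 (limma adjusted p = 0.016). COQ10B and COQ10A, which bind ubiquinone, fell by 0.43 ± 0.10 and 0.36 ± 0.10 (limma adjusted p = 0.012 and 0.023). COQ10A was named after its values were seen. The median of the list was −0.058. The share of 3 in 11 stands beside the 10% called lower over all genes.

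Assembly factors were mostly not called, and their counts stand beside 9.42% called higher and 10% lower over all genes. Of 19 tested genes listed for complexes II to V 1 rose, TMEM70, which serves the ATP synthase. Its signals were 107, 130 and 125 against 123, 152 and 66.2, with a log2 fold change of 0.56 ± 0.12 (limma adjusted p = 0.0054). The 19 include GATB, listed as PET112L, which is not an assembly factor of these complexes. TACO1, which supports translation of a mitochondrially encoded complex IV subunit, was at −0.30 ± 0.11 (limma adjusted p = 0.084). Of 6 other complex I factors 1 fell, TIMMDC1, at −0.36 ± 0.11 (limma adjusted p = 0.040), and it was at −0.07 ± 0.25 with leflunomide 3. FOXRED1 was at 0.27 ± 0.11 on 5 arrays.

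In the citric acid cycle 1 of 13 genes fell without leflunomide 3, a share near the 10% called lower over all genes. IDH3A, the catalytic subunit of the NAD-dependent isocitrate dehydrogenase, had signals of 1081, 1006 and 1019 with DMSO and 505, 751 and 195 with leflunomide, and fell by 0.49 ± 0.12 (limma adjusted p = 0.015). SUCLG2 was at 0.31 ± 0.12 (limma adjusted p = 0.088). SLC25A4, an ADP/ATP carrier of the inner membrane, was the 1 called gene of 6 electron carrier and exchange genes, again beside 10% called lower over all genes. Its signals were 3378, 4261 and 3149 with DMSO and 1715, 2583 and 750 with leflunomide. It fell by 0.55 ± 0.10 (limma adjusted p = 0.0028) and was at −0.58 ± 0.10 with leflunomide 3 (limma adjusted p = 0.070). SLC25A3, the phosphate carrier, was at 0.11 ± 0.10.

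Among regulators of mitochondrial biogenesis 2 of 15 rose and none fell without leflunomide 3, a share near the 9.42% called higher over all genes. TFAM, which packages mitochondrial DNA and helps to start its transcription, had signals of 1612, 1826 and 1541 with DMSO and 1394, 2131 and 569 with leflunomide. It rose by 0.33 ± 0.10 (limma adjusted p = 0.031). PPARGC1B, a coactivator, rose by 0.50 ± 0.11 (limma adjusted p = 0.0071), at signals of 66.5 to 80.2 on those arrays, close to background. The list had a median of 0.17. NRF1, named because its motif was searched, was at 0.13 ± 0.10 and detected on 3 arrays. YY1, named for the same reason, was at 0.17 ± 0.11 and detected on 6. For GABP, GABPA was above background on no array and GABPB1 had no row. In glycolysis 1 of 15 genes rose, beside the same 9.42%. It was HK2, a hexokinase that binds mitochondria, at 0.61 ± 0.18 (limma adjusted p = 0.030), while PFKP was at 0.34 ± 0.13 (limma adjusted p = 0.078). The glycolysis median was 0.14, and the subunits' median was −0.042 on the same scale. Scaled to a common median, which put all genes at −0.20, the glycolysis and biogenesis medians turned to −0.028 and −0.069, and TMEM70, PPARGC1B, TFAM and HK2 stayed positive without passing. The lists were not tested against each other.

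**Figure D5:**
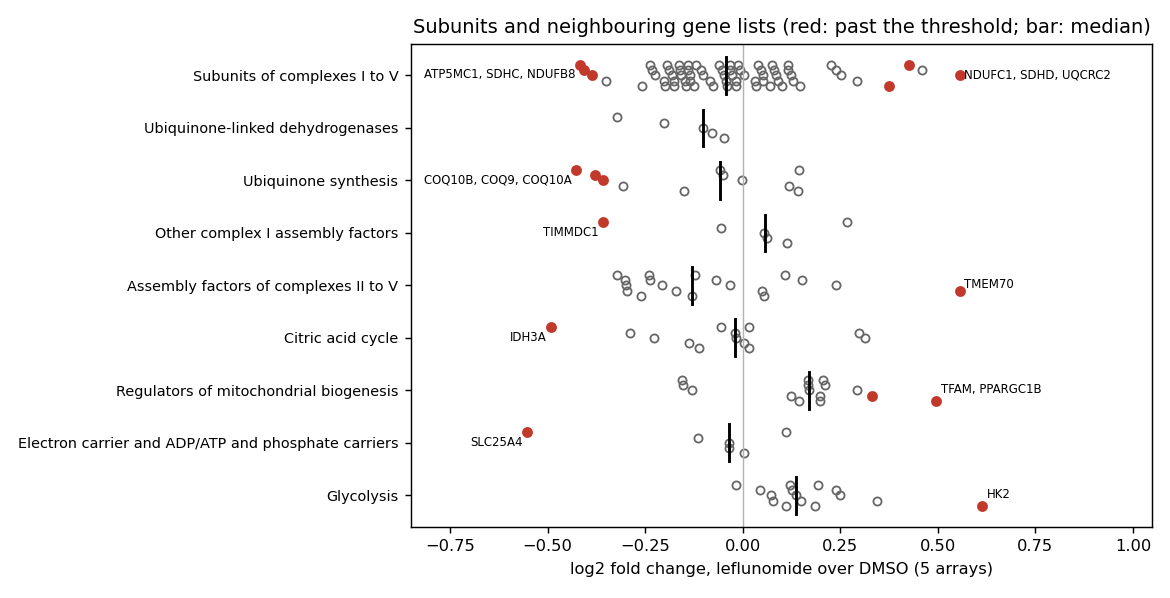
Log2 fold change without leflunomide 3 for the 68 tested subunits and for 8 lists of neighbouring genes, with 1 point per gene, red where limma's adjusted p was under 0.05 and a black bar at each median. The named genes at the left or right of a row are its called genes, and the glycolysis and biogenesis medians lie above 0 here. Under median scaling they are at −0.028 and −0.069, where the median of all genes is −0.20.

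Several values have limits that belong to the probes. Of the 81 members, 59 matched a single probe of the second deposited table, and 22 did not, among them SDHC and ATP5MC1, whose rows may combine probes. Many respiratory chain genes have processed pseudogenes elsewhere in the genome, and ATP5MC1, ATP5MC2 and ATP5MC3 are alike in sequence, so a probe may read more than 1 of them.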

How the data were processed

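The main table's intensity values, as deposited, are mean signals over beads on a linear scale with no normalization between arrays, per the file headers. GenomeStudio produced them, per the submitters' processing notes. The sources used here give neither its version nor the annotation of the probes. Each signal comes with a deposited detection p-value, which sets the row against the negative control beads of its array. The file has 38275 rows with 1 row per symbol, so the authors had combined the probes of some genes. A second deposited table holds probe intensity values scaled to a common array mean, with column medians of 54.7, 50.4 and 58.3 for DMSO and 67.8, 54.2 and 93.9 for leflunomide. It served as an alternative through the 31575 rows that matched a probe on all 6 arrays, and whether more was done to it is unknown.

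Signals were corrected in limma 3.58.1 (R 4.3.3) with the normexp model, using negative control parameters inferred from the 32290 rows whose detection p-values were ranks among 759 control bead types (tolerance 0.001). An offset of 16 was added and the arrays were quantile normalized. The offset understates the change of dim genes. Genes with a detection p under 0.05 on at least 3 arrays were kept, with the brightest row per current symbol, which left 12345 genes on 6 arrays and 12166 on 5. Where probes were combined, the detection p is the authors' and can be high at a bright signal. The treatments were compared in a limma linear model (lmFit and eBayes), with Benjamini-Hochberg adjustment over all tested genes, at a threshold of 0.05, and all steps were repeated without leflunomide 3. The script was tested on simulated data. Lists are described by counts and medians and were not tested. The number of arrays limits the precision.

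The members, the lists and the choice to repeat the fit without leflunomide 3 were made with earlier results of these data known. By rule, signals on every array are given for called members, the largest increase and decrease of each complex over 6 arrays, up to 8 members that moved most between the fits, 14 fixed genes with DHODH among them, and the isoform pair COX7B and COX7B2. Of each other list, the 2 genes with the smallest p on 5 arrays are named. A result that the rule names is not reported here. Gene names were brought up to date from RefSeq's table for GRCh38.p14, which gave names only, and 19 members were renamed. Promoter windows are RefSeq's on the same build. Deviations of arrays with the same replicate number from their group means correlated at −0.0086, 0.21 and 0.22. Leflunomide 3 enters the mean of its group, so these values cannot tell whether the numbers pair the arrays. The main fits did not pair them. Alternatives were other background corrections, offsets, normalizations, filters and variance models, array weights, the replicate number as a block, and leaving out each array. Repeating these on the 5 arrays, and the lists under median scaling, were chosen after seeing the data.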

Additional observations from a re-analysis of the deposited data

How the results depend on the processing

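Median scaling in place of quantile normalization moved the median of all genes to −0.53 on 6 arrays and −0.20 on 5, and values should be read against that shift. With it no gene was called on 6 arrays by limma (5 members at an unadjusted p under 0.05), and medians were −0.63 over the members, −0.61 for complex I, −0.97 for complex II, −0.59 for complex III, −0.67 for complex IV and −0.60 for the ATP synthase. The signs of NDUFC1 (−0.43), SDHD (−0.54), UQCRC2 (−0.26), NDUFA7 (−0.41), COX7B (−0.35), ATP5C1 (−0.35), NDUFA13 (−0.47), NDUFV1 (−0.53), NDUFS1 (−0.36), UQCRC1 (−0.56) and UQCRFS1 (−0.52) turned. On 5 arrays 0 members were higher and 1 lower with 821 genes called, at medians of −0.23 over the members, −0.26, −0.39, −0.20 and −0.16 for complexes I to IV and −0.20 for the ATP synthase, and NDUFA7 (−0.028), UQCRH (−0.022), NDUFS1 (−0.14) and COX7B2 (−0.13) turned.

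On 6 arrays, normexp with parameters from all rows called 1 member lower, with COX7B2 at 0.0043, and cyclic loess called 323 genes. The second table gave medians of −0.12, 0.011 and −0.075 for complex II, complex III and the ATP synthase, with COX7B2 at 0.024. Complex III was at 0.027 among genes detected on all arrays, and complex IV at −0.031 with no detection filter. Array weights gave leflunomide 3 a weight of 0.068 and called 2549 genes, with 6 members higher and 6 lower, complex III at −0.0013, and UQCRH (0.088), NDUFA13 (−0.19), NDUFV1 (−0.13), UQCRC1 (−0.22), UQCRFS1 (−0.0013) and COX7B2 (0.088) turned. With the replicate number as a block 4 genes and 0 members were called.

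On 5 arrays, normexp with parameters from all rows called 688 genes and 0 members higher, and 5 members were lower without background correction. Cyclic loess put COX5A at 0.039. The second table called 1550 genes and put complex II at 0.12 from SDHB and SDHD alone. With no detection filter 2 members were higher and 1 lower. Array weights called 5 members lower and the intensity trend with robust moderation 6. The replicate block called 1 member higher and 1 lower, with ATP5D at 0.0097 and UQCR at 0.060. The 6 subunits called on 5 arrays passed in 8 of 11 processing alternatives (NDUFB8, NDUFC1, UQCRC2), 7 of 11 (SDHD), 7 of 10 (SDHC) or 5 of 10 (ATP5MC1), and none changed sign there.

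Leaving out 1 array at a time from the 6 gave 3 to 2368 called genes and 0 to 4 members higher and 0 to 3 lower, and the upper value in each case was the fit without leflunomide 3, while leaving out any other array called at most 5 genes and no member. Medians ranged from −0.088 to −0.0035 over the members, −0.057 to 0.061 for complex I, −0.28 to −0.17 for complex II, −0.12 to 0.0043 for complex III, −0.27 to −0.015 for complex IV, −0.11 to −0.0035 for the ATP synthase. Genes that changed sign in these fits ranged from −0.14 to 0.0043 (CYC1), −0.20 to 0.21 (UQCRC1), −0.12 to 0.13 (COX7B2), −1.26 to 0.12 (UQCRH), −0.24 to 0.40 (NDUFA13), −0.14 to 0.31 (NDUFV1), −0.016 to 0.065 (UQCRFS1). On 5 arrays, leaving out another gave 793 to 2713 genes, 0 to 5 members higher and 0 to 7 lower, with medians of −0.087 to −0.016 over the members, −0.095 to −0.026 for complex I, −0.22 to −0.12 for complex II, −0.058 to 0.019 for complex III, −0.076 to 0.070 for complex IV, −0.055 to 0.045 for the ATP synthase. There the sign changes ranged from −0.096 to 0.039 (ATP5D), −0.012 to 0.20 (NDUFS1), −0.21 to 0.13 (UQCR), −0.38 to 0.13 (COX6A1), −0.058 to 0.019 (UQCRFS1). Leaving out 1 further array kept NDUFB8 past the threshold in 3 of 5 fits, NDUFC1 and SDHD in 2, UQCRC2 in 4, and SDHC and ATP5MC1 in 1. Where an array was left out, fewer samples were tested, and the cause of the other shifts was not tested. Signal over background limits dim rows such as NDUFS1, UQCR11 and DHODH.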
